A study of Oryza sativa with 6 samples.

Results

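The 200 most abundant transcripts of rice root tips were described here, with their levels in roots grown beside the floating fern Azolla filiculoides and in roots grown without it. Each library's counts were scaled to its total as CPM (counts per 1000000), and members were chosen by mean CPM over the 6 libraries, as the first 200 of 37863 loci. Levels and ranks are therefore given as a description. The plants were Kitaake rice (Oryza sativa), transplanted as 13-day-old seedlings at 4 per box into about 5 L of Yoshida nutrient solution without aeration. In 3 co-cultivated boxes the water carried living Azolla, and in 3 control boxes rice grew alone under a covered surface that kept algae out. Roots were cut up to 1 cm from the apices 15 days after transplanting (DAT), and poly(A)-selected stranded RNA-seq gave 1 library per box, 3 biological replicates per treatment. The covered surface was part of the control treatment, so cover and absence of Azolla cannot be told apart. No plant was altered genetically.

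A root tip holds dividing cells, elongating cells and young differentiating tissue in a short length. Such cells import sucrose, break it down for carbon and energy, lay down wall polysaccharides, fill their vacuoles through water channels and keep a large protein synthesis machinery. In rice, the root also takes up silicon through dedicated transporters and handles iron and zinc with small metal-binding molecules such as nicotianamine and with metallothioneins, cysteine-rich metal-binding proteins.

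Library totals were 23477086, 25120456 and 24896440 counts in co-cultivated replicates 1 to 3, and 22526759, 21551508 and 23703813 in control replicates 1 to 3. Between 28789 and 29948 loci had a count in a library. The tissue label was checked with 12 photosynthesis loci of the shoot, whose summed level ran from 21.5 to 55.0 CPM in co-cultivated libraries and from 27.7 to 45.2 CPM in control libraries. A root marker, the locus listed as RCC3 (Os02g0662000), was itself a member at rank 36, with 1533, 2854 and 1849 CPM in co-cultivated roots and 1109, 359 and 710 CPM in controls. The treatments did not overlap for it (log2 fold change 1.55 ± 0.44 SE, adjusted p = 0.117 by edgeR), while its companion RCC2 was at 0 in every library. The 4 loci of the meristem and stele summed to 41.1 to 51.6 CPM in co-cultivated libraries and 47.5 to 63.0 CPM in controls. Among them PLT1, a regulator of the root meristem, was lower in every co-cultivated box, as were 16.7% of all tested loci. It had 13.6, 19.9 and 17.5 CPM in co-cultivated roots and 27.8, 28.4 and 24.3 CPM in controls. QHB, SCR1 and SHR1, the others in the list, overlapped between treatments. The part of these markers in the results below was not tested. Controls spread more than co-cultivated libraries at 65.3% of tested loci, and control replicates 2 and 3 differed most of all pairs within a treatment. Control replicates 1 and 3 were closer to each other than co-cultivated replicate 2 was to either other co-cultivated box. Because these are whole root tips, fewer cells of a type and less RNA per cell cannot be told apart.

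The 200 transcripts took similar shares of all counts in both treatments. Their share of counts was 20.1%, 19.8% and 18.6% in co-cultivated replicates 1 to 3 and 20.0%, 18.7% and 21.5% in control replicates 1 to 3. The means were 19.5% ± 0.784 in co-cultivated roots and 20.1% ± 1.37 in controls (SD, n = 3 each), a difference smaller than the spread between control boxes (two-sided exact permutation test, p = 0.6). An exact permutation test of 3 boxes against 3 cannot go below p = 0.1. The top 50 held 8.73% ± 0.477 of counts in co-cultivated roots and 10.3% ± 1.62 in controls (SD, n = 3 each, exact permutation p = 0.3). Since the loci were ranked on the same libraries, these p-values are only descriptive. Between 1467 and 1613 loci were needed to reach 50% of a library's counts. The boundary was not a natural gap: rank 200, MYB4, averaged 477.3 CPM and rank 201 averaged 475.9 CPM.

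Of the 200 members, 177 were also among the 200 highest of the co-cultivated libraries alone and 169 among those of the control libraries alone, with 146 in both. The other members came in through one treatment, 31 through the co-cultivated libraries and 23 through the controls. Members sat on all 12 chromosomes, with 41 on chromosome 3, which is 20.5% of members against 12.0% of all loci, and 4 on chromosome 9, which is 2.0% of members against 5.57% of all loci. The 3 members Os07g0124900, Os07g0125500 and Os07g0126301, at ranks 50 to 52, had identical values in every library. Their counts are not whole numbers, so they cannot be read as separately measured transcripts. A CPM value grows with transcript length as well as with the number of molecules, so the ranks order reads and do not order genes by molecules.

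Names could be checked for 75 of the 200 members against the rice gene table of RefSeq, and 125 are given by locus only. The 75 named members took 8.69% ± 0.675 of counts in co-cultivated roots and 8.10% ± 0.531 in controls, and the 125 without a checked name took 10.8% ± 0.416 in co-cultivated roots and 12.0% ± 0.851 in controls (SD, n = 3 each). The named members were sorted into 11 functional classes. Sugar breakdown and energy was the class with the most named loci, 13, and took 1.85% ± 0.341 of counts in co-cultivated roots and 1.58% ± 0.152 in controls. Water channels followed with 10 loci at 1.46% ± 0.242 in co-cultivated roots and 0.916% ± 0.189 in controls. Metal binding, with 6 loci, took 0.802% ± 0.102 in co-cultivated roots and 1.51% ± 0.756 in controls. Each of the 11 comparisons gave an adjusted p of at least 0.22 (exact permutation tests, Benjamini-Hochberg over the 11), and since no raw p can go below 0.1, none could have passed 0.05.

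**Figure D1:**
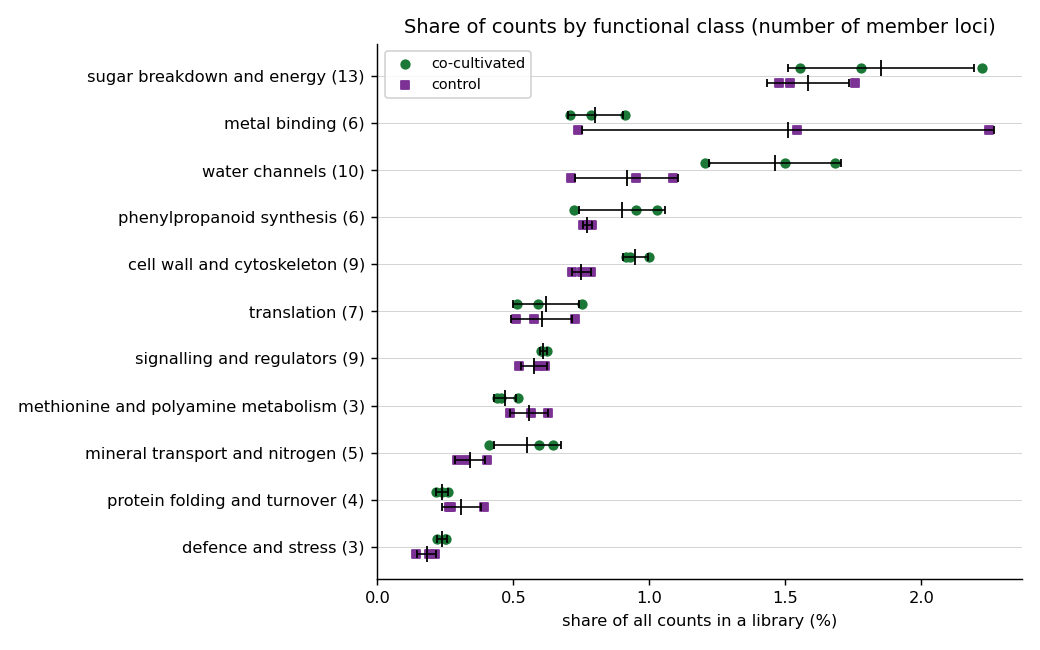
Share of all counts in a library (%) taken by each functional class of named members, with the number of loci in parentheses. Points are boxes, and bars are mean and SD of 3 boxes. Metal binding spread widest among controls, between 0.737% and 2.25%, and all 3 co-cultivated boxes lay above the controls for water channels, cell wall, mineral transport and defence and stress, and below them for protein folding and turnover. In protein folding and turnover only UBQ3 fell, from a mean of 1180 CPM in controls to 348 CPM, and 3 of its 4 loci had a positive log2 fold change. In defence and stress only APX1 was higher in every co-cultivated box, and R40C1 was lower in every one. APX1, and HAK1 in mineral transport, entered the 200 through the co-cultivated libraries alone. The separation of those classes therefore follows partly from how members were taken.

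The 10 most abundant loci were Os07g0429700, PAL, SUS1, MT4C, Os01g0764000, TID1, Os10g0191300, SAM1, MT1A and Os07g0432201, in that order. Together they held 2.82% ± 0.297 of counts in co-cultivated roots and 3.68% ± 0.442 in controls (SD, n = 3 each, exact permutation p = 0.1). They were ranked on these same values, so that p is only descriptive. Os07g0429700 and Os07g0432201 ranked there through the controls, averaging 8259 and 4495 CPM there and 2179 and 338 CPM in co-cultivated roots. SUS1, MT4C, TID1, Os10g0191300 and SAM1 instead had higher means in co-cultivated roots. PAL (Os02g0626100), which encodes phenylalanine ammonia-lyase, the entry enzyme of phenylpropanoid synthesis, had 5101, 3755 and 5225 CPM in co-cultivated roots and 5046, 4714 and 4794 CPM in controls. Its log2 fold change of -0.02 ± 0.26 (SE) was far inside its error. SUS1, a sucrose synthase that cleaves imported sucrose, had 3632, 4318 and 3250 CPM in co-cultivated roots and 2784, 3565 and 3373 CPM in controls, and the treatments overlapped. TID1, an alpha-tubulin of the microtubule cytoskeleton, had 2804, 3190 and 2805 CPM in co-cultivated roots and 2526, 2629 and 2251 CPM in controls. Its treatments did not overlap, but edgeR's quasi-likelihood test gave an adjusted p of 0.517. The loci Os01g0764000 and Os10g0191300, which carry no checked name, overlapped between treatments, the first ranging from 2149 to 2928 CPM in co-cultivated roots and from 2646 to 3768 CPM in controls, and the other from 2211 to 3376 CPM in co-cultivated roots and from 1177 to 4073 CPM in controls.

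Across the whole table, edgeR's quasi-likelihood test called 648 of 24615 tested loci between treatments at an adjusted p under 0.05, a background of 2.63%, and 15 of the 200 members were among them. All 200 members were tested. Higher beside Azolla were 5 members, against a background of 1.46% of all tested loci, and lower were 10, against 1.17%. These counts follow partly from how members were taken, since all 5 that rose entered through the co-cultivated libraries alone and 7 of the 10 that fell entered through the control libraries alone. Ranked on co-cultivated libraries alone, the 200 highest loci held 10 that rose and 3 that fell. Ranked on control libraries alone they held 0 that rose and 29 that fell. The counts also moved with the tool: DESeq2 called 27 members higher, against a background of 5.4%, and 17 lower, against 3.42%, and limma-voom called 8 higher, against 1.26%, and 12 lower, against 1.02%. All 15 calls of edgeR were shared by both tools. The median log2 fold change of the members was 0.21, beside -0.03 over all tested loci. Among the next 800 loci, ranks 201 to 1000, 13 rose and 24 fell, with a median of 0.11. That was 4.62% called, beside 7.5% of the members.

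Boxes of the treatments did not overlap in CPM for 69 members. In 44 of them every co-cultivated box was above every control box, beside 11.7% of all tested loci, and in 25 every co-cultivated box was below, beside 16.7%. The remaining 131 overlapped. These counts also follow partly from how members were taken, on the same CPM values. Of the 200, 31 entered through the co-cultivated libraries alone and 23 through the controls alone.

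**Figure D2:**
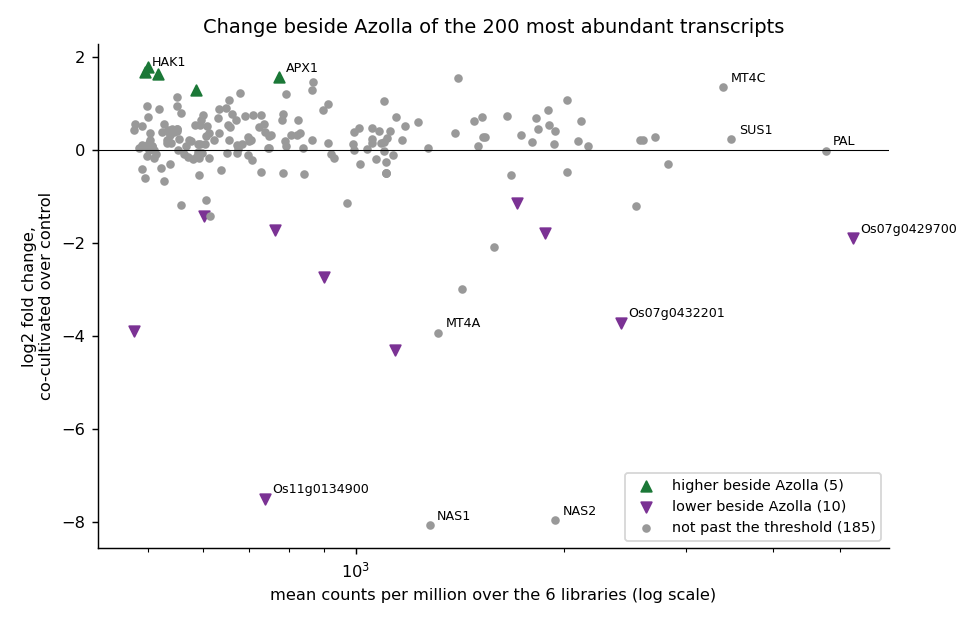
Log2 fold change of co-cultivated over control roots for each of the 200 members against its mean CPM (log scale). Triangles mark the 5 members higher and the 10 lower at an adjusted p under 0.05 (edgeR), and NAS1, NAS2 and MT4A lie as low as the called ones without passing.

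Os07g0429700, first by the mean over all 6 libraries, fell beside Azolla. Its rank comes from the controls, since in co-cultivated roots it averaged 2179 CPM, below MT4C, PAL and SUS1. It had 2497, 1658 and 2381 CPM in co-cultivated roots and 6802, 8755 and 9218 CPM in controls. All co-cultivated boxes were below all controls, and it took 0.218% ± 0.045 of counts in co-cultivated roots and 0.826% ± 0.128 in controls (SD, n = 3 each). The log2 fold change was -1.89 ± 0.30 (SE), with an adjusted p of 0.0273 by edgeR's quasi-likelihood test.

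Another abundant locus on chromosome 7 fell as well. Os07g0432201, at rank 10, had 299, 197 and 518 CPM in co-cultivated roots and 4791, 3305 and 5390 CPM in controls, so the highest co-cultivated box was far below the lowest control. Its log2 fold change was -3.71 ± 0.43 (SE), with an adjusted p of 0.00881 by edgeR. Its neighbour in the table, Os07g0432333 at rank 199, also fell, with a log2 fold change of -3.88. All 3 of these loci have count estimates that are not whole numbers. Reads may be shared out between similar loci in such cases, so their separate levels are uncertain.

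Os11g0134900 had 17.1, 2.71 and 3.90 CPM in co-cultivated roots and 1517, 941 and 1950 CPM in controls. It changed by -7.49 ± 0.89 on the log2 scale (SE, adjusted p = 0.00970 by edgeR). Os11g0484000 had 112, 114 and 96.9 CPM in co-cultivated roots and 2381, 1621 and 2508 CPM in controls. The boxes of each treatment were close to each other and the treatments far apart, with a log2 fold change of -4.30 ± 0.27 (SE, adjusted p = 0.00114 by edgeR). The other unnamed loci that fell were Os12g0589100, Os05g0114700 and Os01g0975300, with log2 fold changes of -2.72, -1.78 and -1.43. Os01g0975300 passed narrowly, at an adjusted p of 0.0495 by edgeR.

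Of the members with a checked name, SAM2 and UBQ3 fell. SAM2 is an S-adenosylmethionine synthetase, which makes the methyl donor that also feeds ethylene, polyamine and nicotianamine synthesis. It had 1105, 1011 and 1031 CPM in co-cultivated roots and 2631, 2383 and 2095 CPM in controls. On the log2 scale it changed by -1.14 ± 0.21 (SE), with an adjusted p of 0.0381 by edgeR. SAM1, a synthetase of the same kind at rank 8, had 3101, 2543 and 2562 CPM in co-cultivated roots and 2238, 3002 and 1989 CPM in controls, with overlap between treatments and a log2 fold change of 0.21 ± 0.26 (SE). The difference between both genes' changes was not tested. SAMDC, the S-adenosylmethionine decarboxylase of polyamine synthesis, had a log2 fold change of 0.21 ± 0.19 (SE). UBQ3, a polyubiquitin gene that supplies the tag for protein breakdown, had 418, 296 and 331 CPM in co-cultivated roots and 1116, 922 and 1504 CPM in controls. That was a log2 fold change of -1.73 ± 0.26 (SE), with an adjusted p of 0.0239 by edgeR. Its counts are not whole numbers, so reads may be shared with other polyubiquitin loci.

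APX1 and HAK1 were the named members that rose. APX1, an ascorbate peroxidase that removes hydrogen peroxide, had 1100, 1128 and 1214 CPM in co-cultivated roots and 421, 485 and 288 CPM in controls. The co-cultivated boxes were close together and all above the controls. On the log2 scale it changed by 1.56 ± 0.23 (SE), with an adjusted p of 0.0222 by edgeR. HAK1, a high-affinity potassium transporter, had 831, 812 and 607 CPM in co-cultivated roots and 233, 149 and 337 CPM in controls. That was a log2 fold change of 1.68 ± 0.32 (SE), with an adjusted p of 0.0465 by edgeR, and its counts were not whole. Without a checked name, Os07g0683900 had 804, 766 and 748 CPM in co-cultivated roots and 230, 213 and 244 CPM in controls. Its log2 fold change of 1.78 ± 0.17 (SE, adjusted p = 0.00435 by edgeR) was the largest rise among members. Os07g0676900 had 867, 724 and 742 CPM in co-cultivated roots and 305, 296 and 174 CPM in controls, a log2 fold change of 1.62 ± 0.26 (SE, adjusted p = 0.0262 by edgeR). Os07g0185900 also rose, by a log2 fold change of 1.29 ± 0.21 (SE).

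**Figure D3:**
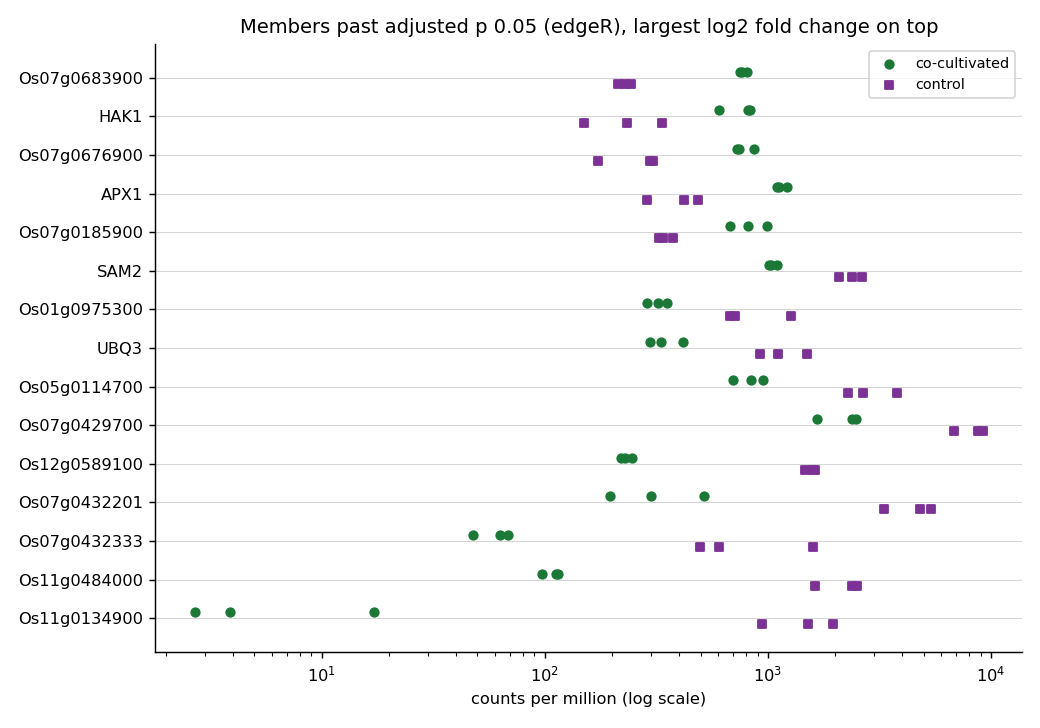
Level in CPM (log scale) of the 15 members past an adjusted p of 0.05 (edgeR), 1 point per box, with the largest log2 fold change on top. In no row do the treatments overlap, and Os11g0134900 is at 17.1 CPM or less in every co-cultivated box.

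Only 4 of the 15 calls, Os11g0484000, Os12g0589100, Os11g0134900 and Os07g0683900, held when each of the 6 libraries was left out in turn. APX1, UBQ3, HAK1, Os05g0114700 and Os07g0676900 lost theirs without any one co-cultivated library or without control replicate 1, and SAM2, Os07g0429700 and Os01g0975300 kept theirs only without control replicate 2. Os07g0185900 lost its call without co-cultivated replicate 1 or 3 or control replicate 1 or 3, Os07g0432333 without co-cultivated replicate 1 or 3, and Os07g0432201 without co-cultivated replicate 1. All kept their direction.

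Metal-binding members showed large differences and large spread. None of the 6 passed edgeR's test, while at an unadjusted p 4 were under 0.05, beside 20.4% of all tested loci. Among lower calls DESeq2 made 4, against a background of 3.42%, and limma-voom 2, against 1.02%. NAS1 and NAS2, neighbouring genes for nicotianamine synthase, which makes the iron and zinc chelator nicotianamine, were among the most abundant transcripts of control roots and scarce beside Azolla. NAS2 had 42.3, 1.48 and 1.01 CPM in co-cultivated roots and 4433, 2007 and 5148 CPM in controls. NAS1 had 26.9, 0.349 and 0.159 CPM in co-cultivated roots and 2849, 1677 and 3109 CPM in controls. The treatments did not overlap for either gene, and co-cultivated replicate 1 stood above the other co-cultivated boxes in both. The log2 fold changes were -7.95 ± 1.68 for NAS2 and -8.06 ± 1.89 for NAS1 (SE), with adjusted p of 0.0581 and 0.0740 by edgeR. With no filter on low counts NAS2 passed, at an adjusted p of 0.0395 by edgeR, and with replicate number as a block in the fit at 0.0389. Without co-cultivated replicate 1 the adjusted p were 0.00555 for NAS2 and 0.00345 for NAS1 by edgeR. Both genes have counts that are not whole numbers.

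The 4 metallothionein members with a checked name ran in different directions, and none passed edgeR's test. MT4A had 94.9, 66.3 and 325 CPM in co-cultivated roots and 2028, 592 and 4782 CPM in controls, with no overlap and a log2 fold change of -3.92 ± 0.92 (SE). Its adjusted p was 0.0740 by edgeR, or 0.0378 without control replicate 2 and 0.0116 with replicate number as a block in the fit. MT1A, at rank 9, had 1813, 1510 and 1235 CPM in co-cultivated roots and 3653, 2383 and 4635 CPM in controls, again without overlap (log2 fold change -1.19 ± 0.32 SE, adjusted p = 0.105 by edgeR). MT4C, at rank 4, had the opposite order, with 5589, 3674 and 5281 CPM in co-cultivated roots and 1767, 529 and 3522 CPM in controls (log2 fold change 1.35 ± 0.62 SE, adjusted p = 0.276 by edgeR). MT1B had 1542, 1836 and 1020 CPM in co-cultivated roots and 703, 184 and 1292 CPM in controls, with overlap. In all 4 genes control replicate 2 was the lowest control and control replicate 3 the highest.

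All 10 water channels had a positive log2 fold change, here and under every other scaling, filter and tool run. So did 61 of all 75 named members, 5 of 5 in mineral transport and nitrogen among them, and 138 of the 200 members, 69.0%, beside 47.3% of all tested loci. Members were ranked on these same values, and more entered through the co-cultivated libraries alone, 31, than through the controls alone, 23. The shares of positive signs thus follow partly from that choice, and a common rise was not tested. The water channels were 7 plasma membrane aquaporins (PIP1-1, PIP1-2, PIP1-3, PIP2-1, PIP2-2, PIP2-3 and PIP2-4) and 3 vacuolar ones (TIP1-1, TIP2-1 and TIP2-2), with a median log2 fold change of 0.71 beside -0.03 over all tested loci. None passed, the lowest adjusted p being 0.175 for PIP2-2 by edgeR, and DESeq2 and limma-voom called 0 of them as well, although 6 had an unadjusted p under 0.05 by edgeR, beside 20.4% of all tested loci. PIP1-2, the most abundant, had 2503, 2729 and 2063 CPM in co-cultivated roots and 1459, 783 and 1841 CPM in controls. TIP1-1, a channel of the vacuolar membrane, had 1721, 2129 and 1757 CPM in co-cultivated roots and 1453, 721 and 1348 CPM in controls. In 5 of the 10 every co-cultivated box was above every control box, beside 44 of all 200 members and 11.7% of all tested loci. TIP2-2 was the member with the largest difference, at 976, 1052 and 803 CPM in co-cultivated roots and 600, 159 and 487 CPM in controls (log2 fold change 1.22 ± 0.45 SE), and control replicate 2 was its lowest box.

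**Figure D4:**
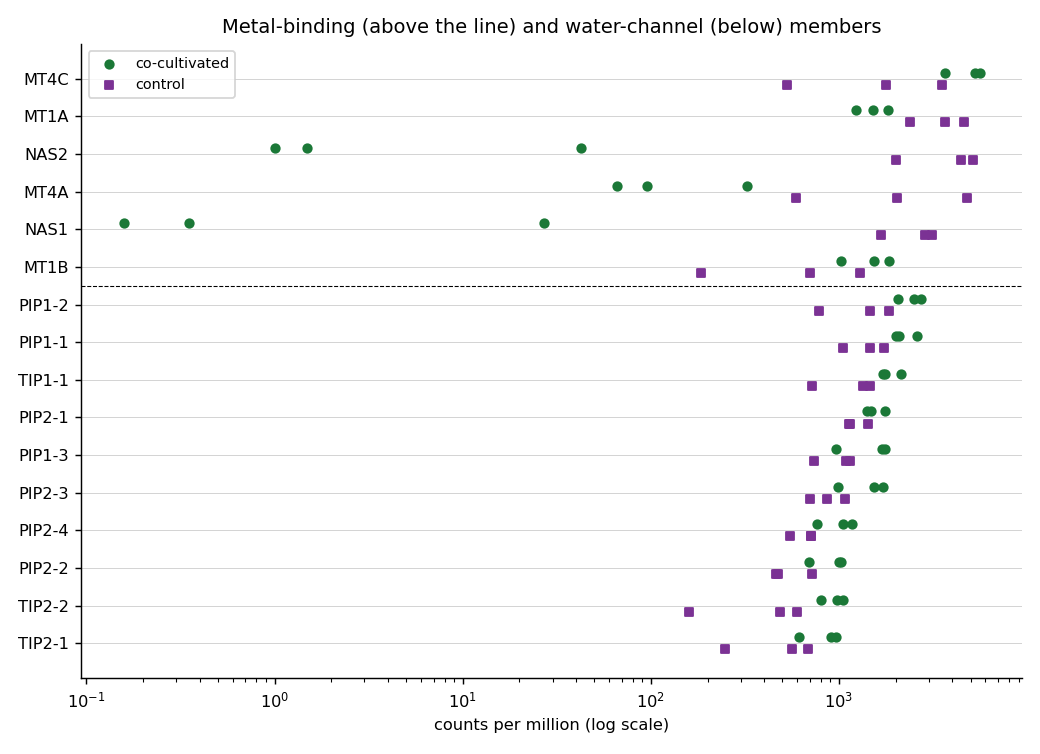
Level in CPM (log scale) of the 6 metal-binding members, above the dashed line, and the 10 water channels, below it, 1 point per box. NAS1 and NAS2 are at 42.3 CPM or less in every co-cultivated box and at 1677 CPM or more in every control box, and the water channels differ by far smaller steps.

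Mineral transport and nitrogen held 5 members. The silicon influx channel Lsi1 had 1075, 963 and 609 CPM in co-cultivated roots and 497, 533 and 259 CPM in controls. The silicon efflux transporter Lsi2 had 1422, 1362 and 814 CPM in co-cultivated roots and 708, 670 and 485 CPM in controls. Treatments did not overlap for either gene, with log2 fold changes of 1.08 ± 0.35 for Lsi1 and 0.99 ± 0.29 for Lsi2 (SE) and adjusted p of 0.147 and 0.123 by edgeR. In both Lsi genes the lowest box of each treatment was replicate 3. DESeq2 called both. GLN1-2, a cytosolic glutamine synthetase that assimilates ammonium, had 1994, 2698 and 1602 CPM in co-cultivated roots and 1205, 884 and 2597 CPM in controls, overlapping through control replicate 3. PHO1-2, which loads phosphate into the xylem, had a log2 fold change of 0.09 ± 0.28 (SE). HAK1, described above, was the 1 member of this class called by edgeR's main fit. With replicate number added to that fit as a block, Lsi1 passed at an adjusted p of 0.0402 by edgeR, while HAK1 lost its call.

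Wall synthesis was represented by 4 cellulose synthases, 2 UDP-glucose dehydrogenases, a xyloglucan-modifying enzyme and 2 alpha-tubulins. Of these 9, 0 passed edgeR's test, and 3 were under 0.05 before adjustment, beside 20.4% of all tested loci. DESeq2 called 3 higher, against a background of 5.4%, and limma-voom 1, against 1.26%. UGD3, a dehydrogenase that opens the route from UDP-glucose to the sugar acids of pectin and xylan, came closest. It had 1167, 1090 and 1187 CPM in co-cultivated roots and 656, 600 and 680 CPM in controls, with tight boxes and no overlap, a log2 fold change of 0.86 ± 0.18 (SE) and an adjusted p of 0.0531 by edgeR, or 0.0494 with no filter on low counts. The cellulose synthases ran from a log2 fold change of -0.09 ± 0.20 (SE) for CESA3, which turned to 0.03 without co-cultivated replicate 2, to 0.53 ± 0.17 for CESA6. CESA3 had 965, 726 and 953 CPM in co-cultivated roots and 921, 897 and 1061 CPM in controls, whereas CESA6 had 668, 703 and 688 CPM in co-cultivated roots and 449, 540 and 467 CPM in controls. TUBA1 had 544, 855 and 607 CPM in co-cultivated roots and 404, 417 and 293 CPM in controls.

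Phenylpropanoid synthesis, the route to lignin and other phenolics, held 6 members, and none passed edgeR's test. Before adjustment 4 were under 0.05, beside 20.4% of all tested loci. DESeq2 called 4 higher, against a background of 5.4%, and limma-voom 0, against 1.26%. ROMT-15, an O-methyltransferase, had 1088, 901 and 951 CPM in co-cultivated roots and 581, 573 and 613 CPM in controls, without overlap (log2 fold change 0.76 ± 0.18 SE, adjusted p = 0.0758 by edgeR). HCT2, a hydroxycinnamoyltransferase, had 835, 562 and 716 CPM in co-cultivated roots and 454, 373 and 411 CPM in controls. DAHPS2, which feeds the shikimate pathway ahead of phenylalanine, and ZB8, another phenylalanine ammonia-lyase gene, also had no overlap, with log2 fold changes of 0.68 ± 0.22 and 0.94 ± 0.29 (SE). In 4 of the 6 every co-cultivated box was above every control box, beside 11.7% of all tested loci. PAL, far the most abundant of the class, did not share this pattern, as its values above show.

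In sugar breakdown and energy, 12 of 13 members had a positive log2 fold change, beside 69.0% of all members. Of the 13, 0 passed by edgeR, DESeq2 or limma-voom, none had an unadjusted p under 0.05, and 12 overlapped. FBA3, a fructose-bisphosphate aldolase, had 2177, 3005 and 1441 CPM in co-cultivated roots and 1923, 2187 and 1835 CPM in controls. GAPC3, a cytosolic glyceraldehyde-3-phosphate dehydrogenase, had 2197, 2960 and 1531 CPM in co-cultivated roots and 1466, 1798 and 1459 CPM in controls. Adh2, an alcohol dehydrogenase of fermentation, had 736, 999 and 424 CPM in co-cultivated roots and 485, 637 and 300 CPM in controls. In all 3 genes replicate 2 was the highest and replicate 3 the lowest box of each treatment. The class median log2 fold change was 0.22.

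Translation held 4 loci of the elongation factor REFA, ribosomal proteins 60SP0 and RPL5A, and the initiation factor GOS2, and none of the 7 passed edgeR's test, nor did DESeq2 or limma-voom call any, and none had an unadjusted p under 0.05. The 4 REFA loci had log2 fold changes between 0.13 and 0.21, and those of 2 of the loci turned negative without co-cultivated replicate 2 or without control replicate 3. Their counts are not whole, and the gene table lists 1 entry for their names, so they are best read together. GOS2, often used as a reference transcript in rice, had 709, 652 and 686 CPM in co-cultivated roots and 1071, 705 and 1226 CPM in controls. The chaperones of the endoplasmic reticulum varied with the control box: BiP1 had 496, 742 and 599 CPM in co-cultivated roots and 404, 1011 and 299 CPM in controls, and CRT1, a calreticulin, had 758, 887 and 879 CPM in co-cultivated roots and 685, 1296 and 531 CPM in controls. In both, replicate 2 was the highest box of each treatment.

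Signalling and regulatory members numbered 9, and none passed edgeR's test, DESeq2 or limma-voom, nor had an unadjusted p under 0.05. GF14B, a 14-3-3 protein that binds phosphorylated partners, had 865, 957 and 862 CPM in co-cultivated roots and 1103, 1160 and 1125 CPM in controls, without overlap but with a log2 fold change of only -0.31 ± 0.18 (SE). The small GTPase gene ARF, an ADP-ribosylation factor, and TCTP, a translationally controlled tumour protein homologue, had log2 fold changes of -0.01 ± 0.18 and 0.02 ± 0.18 (SE). The jasmonate repressor JAZ10 had 804, 455 and 595 CPM in co-cultivated roots and 617, 452 and 330 CPM in controls. In the defence and stress class, R40C1, a lectin-like protein induced by abscisic acid, had 636, 655 and 643 CPM in co-cultivated roots and 1055, 766 and 957 CPM in controls (log2 fold change -0.49 ± 0.19 SE, adjusted p = 0.205 by edgeR). The chitinase Cht2 had 734, 394 and 650 CPM in co-cultivated roots and 406, 165 and 884 CPM in controls, overlapping widely.

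Abundant transcripts were not uniform between boxes of the same treatment. The highest box exceeded the lowest by more than 2-fold for 16 members in co-cultivated roots and for 56 in controls. By the standard deviation of log2 CPM, controls spread more than co-cultivated roots in 134 of the 200 members, 67.0%, beside 65.3% of all tested loci, with member medians of 0.251 in co-cultivated roots and 0.352 in controls. In 10 members the control range exceeded 4-fold, and in 8 of them control replicate 2 was the lowest box and in 8 control replicate 3 the highest. The widest was Os02g0583700, singled out after its values were seen, with 269, 193 and 486 CPM in co-cultivated roots and 1715, 180 and 5681 CPM in controls. Its log2 fold change of -2.99 ± 1.06 (SE) had an adjusted p of 0.175 by edgeR, and 0.0358 without control replicate 2. Os10g0454200, chosen the same way, ran in the other direction, with 610, 567 and 609 CPM in co-cultivated roots and 1012, 2692 and 332 CPM in controls.

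**Figure D5:**
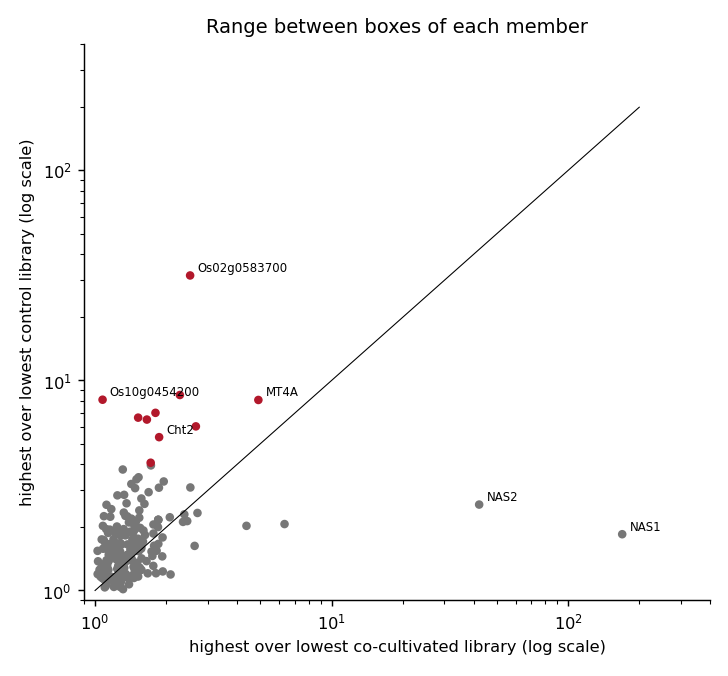
Highest over lowest box within co-cultivated roots (x axis) and within controls (y axis) for each of the 200 members, both on log scales, with the line of equal range. Red points are the 10 members whose control range exceeds 4-fold, and NAS1 and NAS2 lie far to the right because of co-cultivated replicate 1.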

How the data were processed

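The authors deposited a table of estimated counts per locus for 6 libraries, aligned to IRGSP-1.0, and used DESeq2 1.28.1, per the submitters' processing notes. No counting tool or strand setting is given in the sources used here. Of 37863 loci, 2485, among them 51 members, hold a value that is not whole within 1e-06, so the values are expected counts, where whole counts had been planned for, and they were rounded for the tests. CPM values were computed from column totals of the unrounded table.

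The test was edgeR 4.0.16 (R 4.3.3), with TMM scaling, filterByExpr, the quasi-likelihood F-test on treatment and Benjamini-Hochberg adjustment over 24615 loci, called at 0.05. It was tried on simulated data that had equal spread in both treatments. Controls spread more here, so that trial does not speak for these boxes. Alternatives were DESeq2 1.42.0, limma-voom 3.58.1, other scalings and filters, a robust fit, a replicate block, other rankings and each library left out. No libraries agreed within sampling noise.

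Members and lists were chosen with earlier results of these data known. Names were proposed from general knowledge for 134 members after the members were known, some (DAHPS2 and UGD4 among them) after the gene table's entries had been read. A name was kept for 75 when RefSeq's table (assembly ASM3414082v1) lists it on the same chromosome in matching order. That check cannot separate neighbouring copies of a family. Classes are by hand. Genes named are the 10 highest, up to 15 called per direction and up to 3 highest per class, with at most 2 unnamed loci per direction described beyond the 10 highest and the others only listed, and further class members added as examples. No sequence is shown and no coordinate is given. One member that the naming rule picks is not reported here.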

Additional observations from a re-analysis of the deposited data

How the results depend on the processing

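The number of members higher beside Azolla was 5 and became 27 by DESeq2, 8 by limma-voom, 10 when ranked on co-cultivated libraries alone, 0 when ranked on control libraries alone, and 1 to 5 with 1 library left out. The number lower was 10 and became 17 by DESeq2, 3 when ranked on co-cultivated libraries alone, 29 when ranked on control libraries alone, and 4 to 12 with 1 library left out. Calls among the genes picked by rule numbered 15 and ran from 5 to 15 with 1 library left out. Scaling, the filters and the robust fit kept both counts within 1.5 times. A replicate block gave 7 members higher and 13 lower. No share of all tested loci is given for the block or the fits with 1 library left out. Those counts therefore cannot be set against a background. The replicate numbers were not taken as pairs, since same-numbered boxes correlated at 0.0571, 0.146 and 0.174, although each box correlated best with its own number except replicate 1 of each treatment. HAK1 lost its call under the block and with upper-quartile scaling, while Lsi1, NAS2 and MT4A passed under the block (adjusted p = 0.0402, 0.0389 and 0.0116 by edgeR). Os01g0975300 lost its call with RLE scaling, the 1 CPM filter and the robust fit (0.0542, 0.0508 and 0.0517).

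The share of the 200 differed by -0.57 percentage points. Ranked on co-cultivated libraries alone it differed by 2.46 points, but that ranking favours its own treatment by the choice of loci. A ranking on control libraries alone favours the controls in the same way, and its value is not given here. The difference was 0.149 ranked by the median, and ran from -1.24 to 0.132 with 1 library left out. The range was -0.0513 to 0.0770 for translation, whose difference was 0.0153, -1.09 to -0.338 for metal binding (-0.708), 0.0819 to 0.417 for sugar breakdown and energy (0.268), 0.0644 to 0.217 for phenylpropanoid synthesis (0.128), -0.0953 to -0.0298 for protein folding (-0.0721), -0.125 to -0.0550 for methionine and polyamines (-0.0885), 0.0059 to 0.0531 for signalling (0.0334) and 0.0379 to 0.0735 for defence (0.0575). The cause was not tested.

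In log2 fold change, PAL turned to 0.0011 with RLE scaling, ARF to 0.0112 with RLE scaling and 0.0096 by DESeq2, and TCTP to -0.0057 with column totals. With 1 library left out, 50 of the 200 members turned sign in some fit. Among genes picked by rule, the ranges were -0.10 to 0.12 for PAL, -0.13 to 0.81 for Os10g0191300, -0.18 to 0.0269 for CESA3, -0.10 to 1.09 for Cht2, -0.20 to 0.50 for CRT1, -0.18 to 0.83 for BiP1, -0.0677 to 0.0269 for ARF, -0.0837 to 0.0874 for TCTP, -0.10 to 0.43 for FBA3, and -0.0479 to 0.41 and -0.0635 to 0.30 for 2 REFA loci. PHO1-2, RPL5A and 60SP0 also crossed 0.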
